A study of Homo sapiens with 12 samples.

Results

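The G1 cyclins, the cyclin-dependent kinases (CDKs) they activate and the inhibitors that hold these kinases back were followed across 4 groups of RNA-seq libraries. The set holds 10 genes, CCND1, CCND2, CCND3, CCNE1, CDK4, CDK6, CDKN1A, CDKN1B, CDKN2A and RB1, out of the 58735 genes in the deposited tables. Each was taken by its GENCODE 29 symbol and the Ensembl identifier that goes with it, whatever its level. SK-BR-3 cells are a long-used human breast tumour line with amplified ERBB2, and SK/EPI is the line grown from it under stepwise rising epirubicin, an anthracycline that poisons topoisomerase II. The other 2 groups were SK/EPI cells 48 h after transfection by Lipofectamine RNAiMax, either with a control siRNA (SK/EPI-siNC) or with an siRNA to ABCG2, the gene of the efflux pump BCRP (SK/EPI-siBCRP). All SK/EPI groups thus descend from 1 selected line, and both siRNA groups were transfected.

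In G1, the D-type cyclins CCND1, CCND2 and CCND3 bind CDK4 or CDK6, and these complexes begin to phosphorylate the retinoblastoma protein RB1. Until then RB1 binds E2F transcription factors and keeps them from activating genes of DNA synthesis. Cyclin E (CCNE1) with CDK2 then completes the phosphorylation, and the cell enters S phase. The products of CDKN2A (p16INK4a) block CDK4 and CDK6, while p21 (CDKN1A) and p27 (CDKN1B) bind cyclin E with CDK2. In breast cancer the pathway is known as the target of CDK4/6 inhibitors. CDKN2A also encodes p14ARF from another first exon, and gene-level values hold both transcripts together.

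Each group had 3 libraries, with 15830381 to 20545811 reads on genes per library, and the untransfected groups and the siRNA groups came in separate tables. Values are FPKM, reads per kilobase of exon corrected for depth, so levels of different genes can be set side by side. The sources name triplicates without saying whether they were separate cultures, so p-values measure the spread between these libraries. Of 7 markers of the SK-BR-3 line, 6 were at 1 FPKM or above in every group, and CDH1, which this line is known to lack, was near 0. ERBB2 itself fell 4.95-fold in SK/EPI cells (from 659 to 133 FPKM), KRT19 3.24-fold and GRB7 2.45-fold, KRT8 and KRT18 were higher, and after BCRP siRNA all 6 were lower, by 1.05-fold to 1.41-fold. DCN and LUM of fibroblasts and PTPRC and LYZ of leukocytes were under 0.1 FPKM in every library. Of the other fibroblast markers, COL1A1 had group means of 0.794 to 1.57 FPKM and COL3A1 rose from 0.00514 to 0.325 FPKM in SK/EPI cells, with a summed FPKM of the 5 of 1.09 to 1.64 over all libraries. The summed FPKM of 5 leukocyte markers was 1.39 to 1.77 in SK-BR-3 and 27.1 to 28.9 in SK/EPI libraries, and that of 3 endothelial markers 6.67 to 6.99 and 27 to 28.1, with 22.3 to 22.5 after BCRP siRNA against 13.9 to 14.1 with control siRNA. Their part in the results was not tested. ABCG2 stood at 33 FPKM with control siRNA and 3.08 FPKM with BCRP siRNA, 10.7-fold lower.

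The siRNA of these libraries (siBCRP #1 of the study) is shown because the second comparison rests on it, with bases 2 to 8 of the antisense strand, its seed, in capitals.
siBCRP sense: gggauacuuugaaucagcugguuau
siBCRP antisense: aUAACCAGcugauucaaaguauccc
Over its 25 bases it matched transcripts of 1 gene in GENCODE 29, ABCG2, and of 0 of the 10 genes. Matches of the seed alone were not searched.

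Of the 9 genes that could be tested, 4 were higher and 5 lower in SK/EPI than in SK-BR-3 cells (limma on log2(FPKM + 1), adjusted p under 0.05 over all 15823 genes tested). In that comparison 74.9% of all genes were called, 37.9% higher and 37.0% lower, so a call alone says little about these genes, and their sizes are what follows. CDK6 nearly disappeared, CDKN1A fell 3.43-fold and RB1 1.82-fold, while CDKN2A rose 2.99-fold and CDK4 1.53-fold. CCND1, CCND3, CCNE1 and CDKN1B moved by 1.27-fold to 1.34-fold. The median absolute log2 fold change of all tested genes was 0.36, which CCND3 and CCNE1 did not reach and CCND1 passed narrowly. The CCND1 value moved with scaling, from -0.371 here to -0.286 when scaled by reads on genes. With the mitochondrial chromosome left out it was -0.270.

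**Figure D1:**
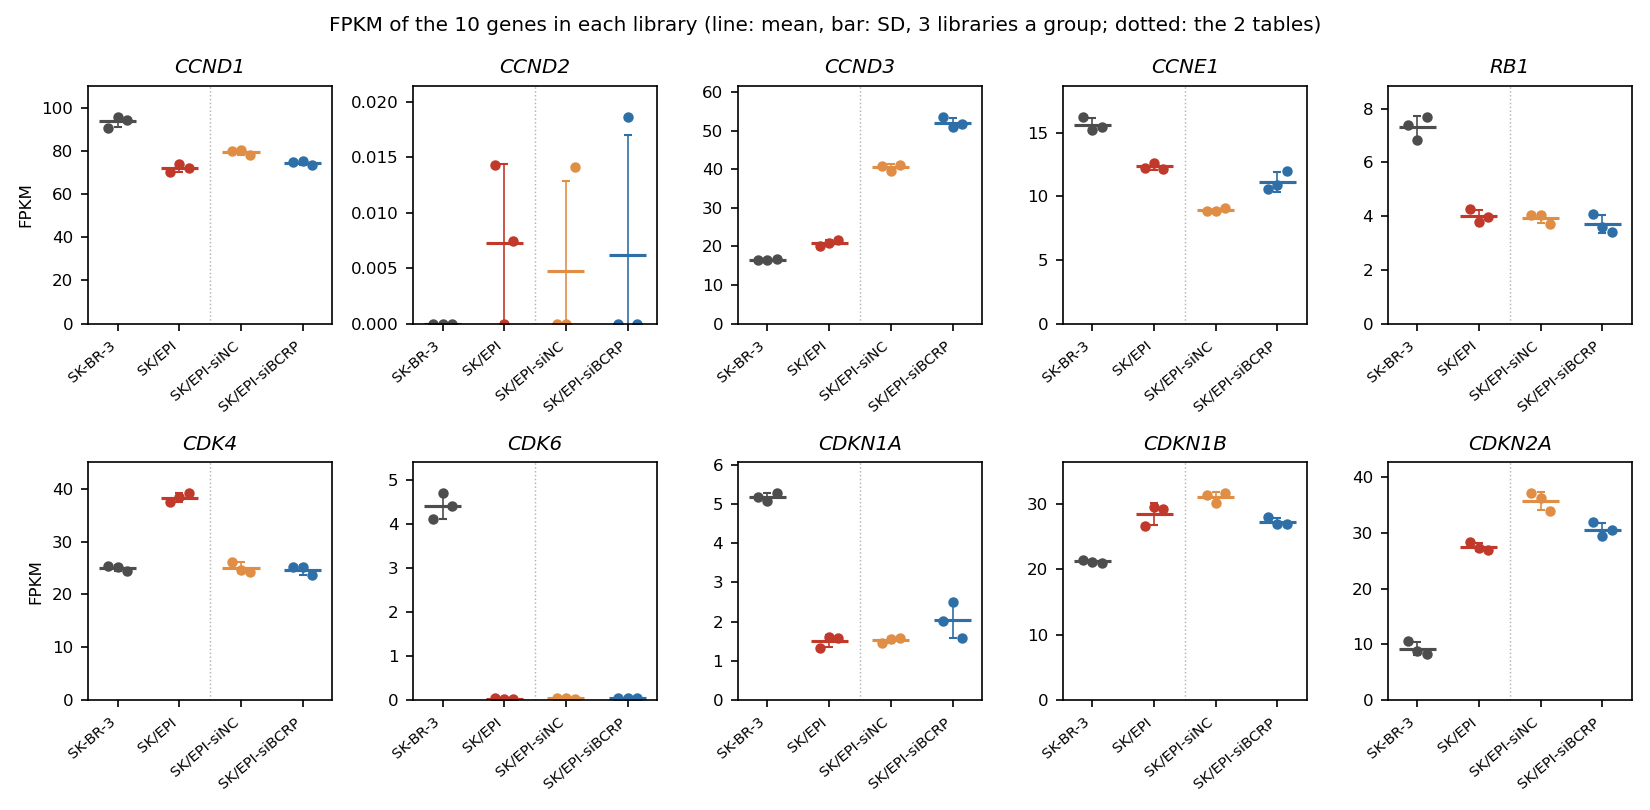
FPKM (vertical axes, each from 0) of the 10 genes in the 12 libraries, with 1 point per library, a line at the mean of 3 libraries and a bar of 1 SD; a dotted line parts the tables, which were normalized separately. CDK6 lies between 4.11 and 4.69 FPKM in SK-BR-3 libraries and under 0.1 FPKM in the other 9, and CCND3 is highest in the SK/EPI-siBCRP libraries.

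By level, CCND1 led the set in every group. In SK-BR-3 cells it was followed by CDK4 (25 FPKM), CDKN1B (21.2), CCND3 (16.5), CCNE1 (15.6), CDKN2A (9.2), RB1 (7.3), CDKN1A (5.18) and CDK6 (4.4), and no neighbours in this order had overlapping libraries. In SK/EPI cells CDKN2A moved up beside CDKN1B, and these 2 overlapped, at 27 to 28.3 and 26.6 to 29.5 FPKM. CDK6 and CCND2 were the last in each SK/EPI group.

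CCND1, the most abundant cyclin of the set (ENSG00000110092, plus strand of chromosome 11, 69641087 to 69654474), was at 91, 96 and 94.8 FPKM in the SK-BR-3 libraries and at 70.6, 74.4 and 72.3 FPKM in the SK/EPI libraries. All SK/EPI libraries lay below all SK-BR-3 libraries. The log2 fold change was -0.37 (SE 0.04, adjusted p = 2.8e-05, limma with Benjamini-Hochberg adjustment). CCND3, its paralog on chromosome 6 (ENSG00000112576, minus strand, 41934933 to 42050357), went the other way, from 16.5, 16.4 and 16.6 FPKM to 20.2, 20.9 and 21.7 FPKM. The groups were again apart, and the log2 fold change was 0.32 (SE 0.04, adjusted p = 7.0e-05, limma with Benjamini-Hochberg adjustment).

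CCND2, the remaining D-type cyclin (ENSG00000118971, plus strand of chromosome 12, 4273772 to 4305350), was close to absent. It had no read in any SK-BR-3 library and at most 3 reads in any other, and it was too low to test. As a share of the D-cyclin FPKM sum, CCND3 made up 14.9% ± 0.37 (SD, n = 3) in SK-BR-3 cells and 22.4% ± 0.6 (SD, n = 3) in SK/EPI cells, with the remainder being CCND1. The sum itself was 107 to 112 FPKM in the first and 90.8 to 95.3 FPKM in the second, without overlap.

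CCNE1, the cyclin of CDK2 (ENSG00000105173, plus strand of chromosome 19, 29811898 to 29824308), stood at 16.2, 15.2 and 15.4 FPKM in SK-BR-3 and at 12.2, 12.7 and 12.2 FPKM in SK/EPI libraries. It was lower in every SK/EPI library, with a log2 fold change of -0.32 (SE 0.04, adjusted p = 1.1e-04, limma with Benjamini-Hochberg adjustment).

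The kinases parted. CDK4 (ENSG00000135446, minus strand of chromosome 12, 57747727 to 57756013) rose from 25.4, 25.1 and 24.4 FPKM in SK-BR-3 to 37.4, 38.4 and 39.1 FPKM in SK/EPI libraries, without overlap. Its log2 fold change was 0.60 (SE 0.03, adjusted p = 9.0e-07, limma with Benjamini-Hochberg adjustment). In the separately normalized siRNA groups of SK/EPI cells the CDK4 mean was 25 FPKM (SK/EPI-siNC) and 24.6 FPKM (SK/EPI-siBCRP). These were near the 25 FPKM of SK-BR-3 cells, so the higher level was seen in the untransfected SK/EPI libraries only. Of its exonic bases 43.2% are shared with TSPAN31 on the opposite strand, and the library kit is not stated to keep strand, so reads there cannot be told apart. TSPAN31 was listed at 2.41 FPKM in SK/EPI and 3.37 FPKM in SK-BR-3 cells. How reads in the shared bases were assigned is not stated, so these values do not bound their effect on CDK4. That effect was not tested, and it would also enter the CDK4 plus CDK6 sum.

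CDK6, which does the same work as CDK4 with the D-type cyclins (ENSG00000105810, minus strand of chromosome 7, 92604921 to 92836594), showed the largest change of the set. Its FPKM was 4.11, 4.69 and 4.4 in the SK-BR-3 libraries, on 799 to 1038 reads each. In the SK/EPI libraries it was 0.0541, 0.0181 and 0.0131 FPKM, on 13, 4 and 3 reads. The groups were far apart. Its log2 fold change was -2.39 (SE 0.06, adjusted p = 1.3e-08, limma with Benjamini-Hochberg adjustment) on the log2(FPKM + 1) scale, which understates changes of low genes, and 2.73% of all tested genes had a larger absolute value. Fitted to reads with limma's voom, the same difference was -7.40 on the log2 scale. The ratio of mean FPKM was 155, and 1 library weighed on it: without SK/EPI replicate 1 the ratio was 283, and with any other library left out it was 122 to 160. From the summed 20 and 2864 reads, the ratio was 152 with a 95% interval of 98.5 to 250 that covers counting error only. As a share of CDK4 plus CDK6 FPKM, CDK6 went from 15% ± 0.944 (SD, n = 3) to 0.0749% ± 0.0605 (SD, n = 3), the latter 0.0402% without SK/EPI replicate 1. The CDK4 plus CDK6 sum was 28.8 to 29.8 FPKM in SK-BR-3 and 37.5 to 39.1 FPKM in SK/EPI libraries.

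**Figure D2:**
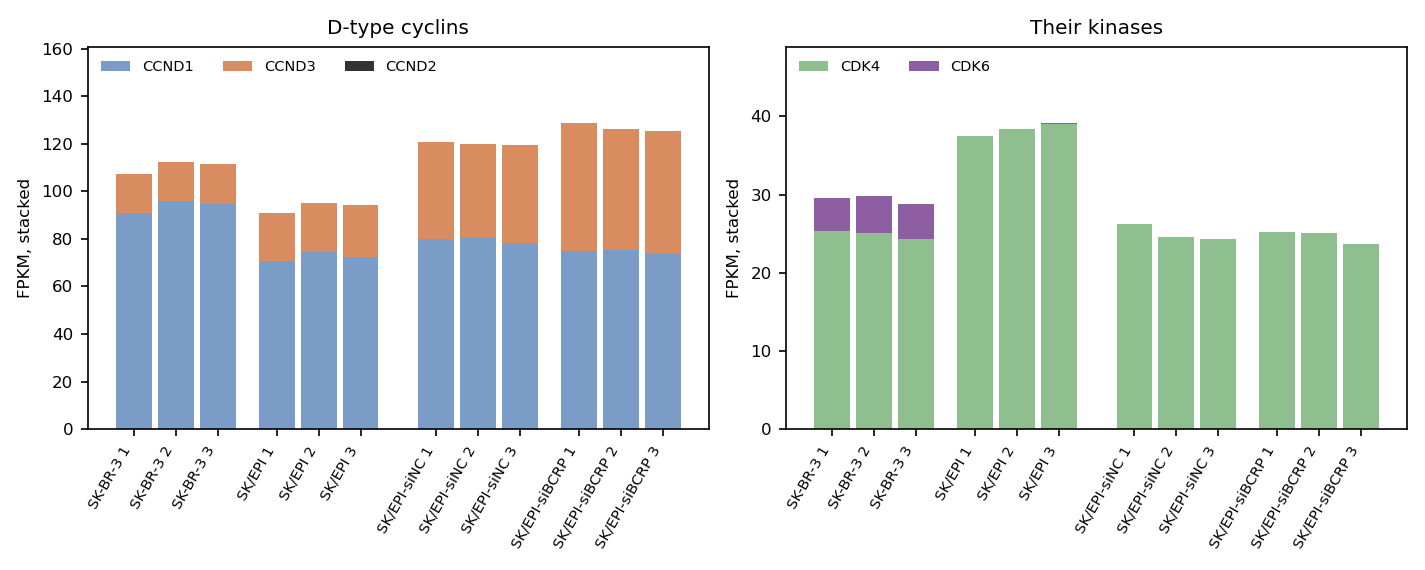
Stacked FPKM (vertical axes from 0) of the D-type cyclins (left) and of CDK4 and CDK6 (right), with 1 bar per library and the number after each group name its replicate. The CDK6 segment is visible in the 3 SK-BR-3 bars, where it is 13.9% to 15.7% of the sum. The CCND3 segment is 14.6% to 15.3% of the D-cyclin sum in SK-BR-3 and 21.9% to 23.1% in SK/EPI bars. In the separately normalized siRNA groups it is 32.9% to 34.4% in SK/EPI-siNC and 40.3% to 41.6% in SK/EPI-siBCRP bars.

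RefSeq lists a pair of starts for CDK6, and the sequence upstream of both is given because this is the gene that all but vanished. Both stretches are printed on the strand of the gene (GRCh38.p14) and hold no annotated exon. The first, chr7:92836595-92836823, ends 21 bases before the outer start, and the second, chr7:92833960-92834209, ends at the inner start, inside the gene. Capitals mark the GC box GGGCGG, the core of Sp1 sites, on either strand.
CDK6 outer start: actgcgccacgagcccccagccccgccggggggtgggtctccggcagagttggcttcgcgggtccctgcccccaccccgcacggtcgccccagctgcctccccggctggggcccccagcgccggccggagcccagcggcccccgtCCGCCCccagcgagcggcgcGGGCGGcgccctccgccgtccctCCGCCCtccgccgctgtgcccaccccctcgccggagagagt
CDK6 inner start: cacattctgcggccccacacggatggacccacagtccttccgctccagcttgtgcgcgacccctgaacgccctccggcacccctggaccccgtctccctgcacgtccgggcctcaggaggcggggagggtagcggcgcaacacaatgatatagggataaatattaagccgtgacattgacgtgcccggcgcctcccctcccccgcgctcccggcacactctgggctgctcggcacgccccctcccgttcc
The outer stretch holds 3 GC boxes and the inner holds 0. Over the 12 RefSeq starts found for 8 of the 10 genes, 8 had a GC box in the 250 bases upstream, against 42.6% of 35116 promoters. Several windows are largely annotated exon: 250 bases for CCND3 at 42048689 to 42048938, 244 for CDKN1B, 241 for CDKN2A at 21974858 to 21975107 and 211 for CDK4. The RB1 start used, 48476450, lies inside the gene, so the window at its outer start (48303726) was not examined. The E2F words TTTCGCGC, TTTGGCGC, TTTCCCGC and TTTGCCGC were in 0 of the 12 windows and in 2.79% of all promoters, which says only that these letters are not in these windows.

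Genes around CDK6 were called in both directions. Of 14 tested coding genes within 1 Mb, 5 were higher and 4 lower in SK/EPI cells, with a median log2 fold change of 0.06. SAMD9, a gene of antiviral defence, was 2.54-fold higher (2.85 against 1.12 FPKM), and GATAD1, a chromatin reader, was 1.93-fold higher (10.3 against 5.33 FPKM). ABCB1, which encodes the P-gp pump, starts at -5.123 Mb from the CDK6 start, and was at 327 FPKM in SK/EPI cells and near 0 in SK-BR-3 cells. Of 20 tested genes between these starts, a window chosen after the values were seen, 8 were higher and 3 lower. Of all genes tested 37.9% were higher and 37.0% lower, so this count is not read as particular to the window. CDK14, another cyclin-dependent kinase gene in this window, was at 10.1 FPKM in SK/EPI and 0.0245 FPKM in SK-BR-3 cells, the opposite pattern to CDK6.

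**Figure D3:**
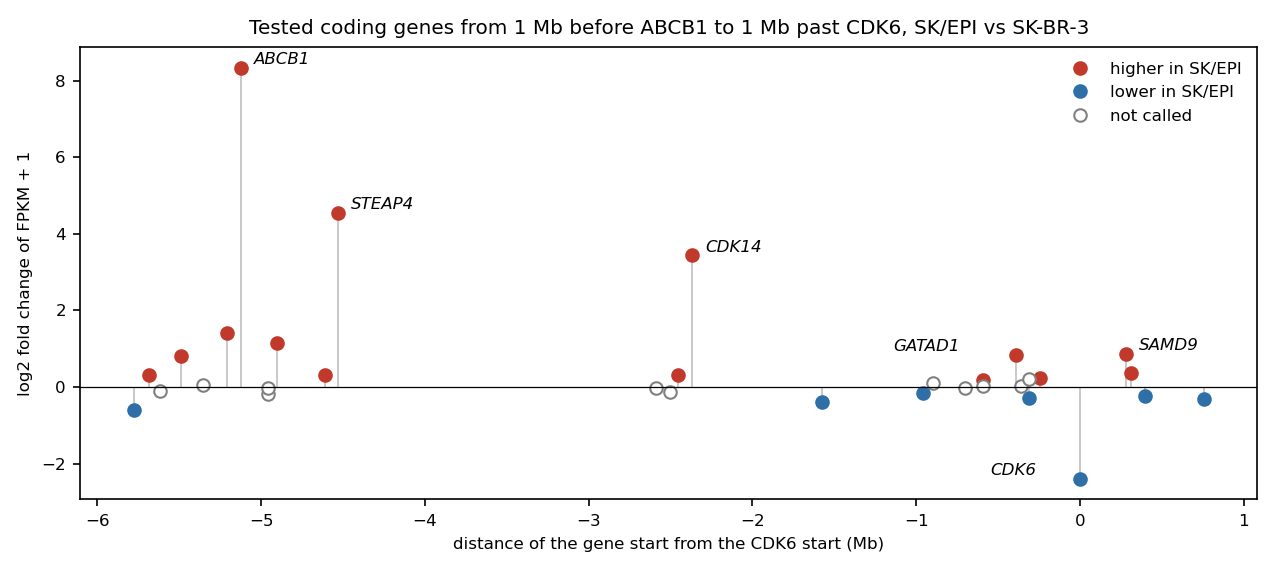
Log2 fold change of FPKM + 1 in SK/EPI against SK-BR-3 cells (vertical axis) for tested coding genes by the distance of their start from the CDK6 start in Mb (horizontal axis); filled points passed an adjusted p of 0.05 in limma and open points did not. CDK6 is the lowest point at -2.39, while ABCB1, STEAP4 and CDK14 are the highest.

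The genes with the most similar course to CDK6 over the 6 libraries, by the root mean square difference of centred log2(FPKM + 1), were KIAA1324 (0.0293), SLC2A1 (0.0351) and CEACAM6 (0.0381). KIAA1324 was at 4.29 FPKM in SK-BR-3 and 0.0113 FPKM in SK/EPI cells, and CEACAM6, a cell surface glycoprotein, at 4.4 and 0.047 FPKM. SLC2A1, the glucose transporter GLUT1, was at 91.2 FPKM in SK-BR-3 and 16.5 FPKM in SK/EPI cells. Its nearness to CDK6, at 4.4 and 0.0284 FPKM, holds on the log2(FPKM + 1) scale, which understates changes of low genes. In proportion SLC2A1 fell far less than CDK6.

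Among the inhibitors, CDKN1A and CDKN2A moved most and in opposite directions. CDKN1A (ENSG00000124762, plus strand of chromosome 6, 36676460 to 36687339) was at 5.19, 5.08 and 5.27 FPKM in SK-BR-3 libraries and at 1.34, 1.61 and 1.58 FPKM in SK/EPI libraries. The groups did not meet, and the log2 fold change was -1.30 (SE 0.06, adjusted p = 4.6e-07, limma with Benjamini-Hochberg adjustment). CDKN2A (ENSG00000147889, minus strand of chromosome 9, 21967753 to 21995301) was at 10.6, 8.77 and 8.27 FPKM in SK-BR-3 and at 28.3, 27.2 and 27 FPKM in SK/EPI libraries. Every SK/EPI library was above every SK-BR-3 library, with a log2 fold change of 1.49 (SE 0.08, adjusted p = 7.9e-07, limma with Benjamini-Hochberg adjustment). Of its exonic bases 7.88% are shared with the antisense gene CDKN2B-AS1.

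CDKN2B, which encodes the related CDK4/6 inhibitor p15INK4b and starts 0.014 Mb from CDKN2A, rose with it, from 3.62 ± 0.414 to 17.9 ± 0.476 FPKM (SD, n = 3), 4.95-fold. MTAP, a methionine salvage enzyme on the other side of CDKN2A, rose 2.51-fold, from 2.21 to 5.55 FPKM. Of the 4 tested coding genes within 1 Mb of CDKN2A, 3 were higher and 1 was not called. CDKN1B (ENSG00000111276, plus strand of chromosome 12, 12715058 to 12722371) was at 21.5, 21.1 and 21 FPKM in SK-BR-3 libraries and at 26.6, 29.5 and 29.2 FPKM in SK/EPI libraries. It was higher in each of the latter, with a log2 fold change of 0.41 (SE 0.04, adjusted p = 6.3e-05, limma with Benjamini-Hochberg adjustment).

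RB1, the substrate of these kinases (ENSG00000139687, plus strand of chromosome 13, 48303726 to 48599436), fell from 7.39, 6.82 and 7.69 FPKM to 4.25, 3.79 and 3.98 FPKM. No SK/EPI library reached the level of an SK-BR-3 library, and the log2 fold change was -0.73 (SE 0.06, adjusted p = 1.1e-05, limma with Benjamini-Hochberg adjustment). Its 11 tested neighbours within 1 Mb held 3 higher and 3 lower, with a median of 0.02. Around the other genes, the median log2 fold change of tested neighbours was -0.55 for CCND1 (4 of 12 higher and 8 lower), -0.37 for CCNE1 (1 of 5 higher and 4 lower), 0.23 for CCND3 (17 of 30 higher and 7 lower) and 0.28 for CDKN1B (8 of 13 higher and 2 lower). It was -0.01 for CDK4 (13 of 34 higher and 12 lower), -0.07 for CDKN1A (7 of 18 higher and 7 lower) and -0.27 for CCND2 (4 of 7 lower and the others not called). Of all these neighbours 75.7% were called, near the 74.9% of all genes.

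**Figure D4:**
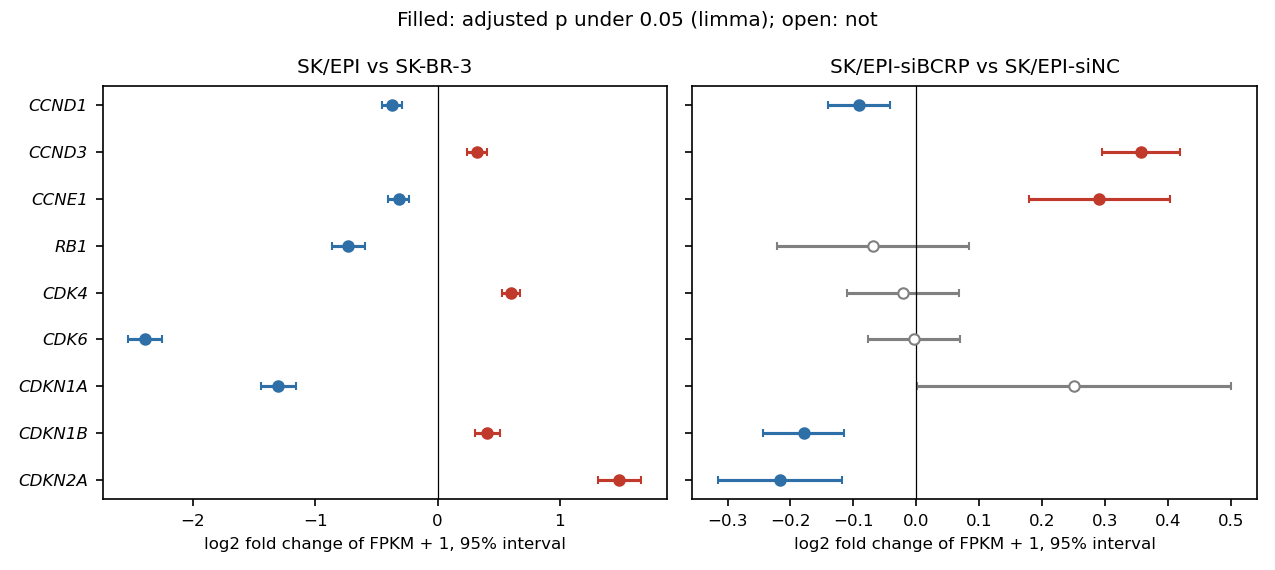
Log2 fold change of FPKM + 1 (horizontal axes, which differ in range) with its 95% interval from limma for the 9 tested genes, SK/EPI against SK-BR-3 cells on the left and SK/EPI-siBCRP against SK/EPI-siNC cells on the right; filled points passed an adjusted p of 0.05. On the left the values run from -2.39 (CDK6) to 1.49 (CDKN2A), and on the right from -0.22 (CDKN2A) to 0.36 (CCND3).

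BCRP siRNA moved most of the set less. CCND3 had a log2 fold change of 0.36, against 0.32 in SK/EPI against SK-BR-3 cells. For CCNE1 the values were 0.29 and -0.32. Of the 9 genes tested, 2 were higher (CCND3 and CCNE1) and 3 lower (CCND1, CDKN1B and CDKN2A) in SK/EPI-siBCRP than in SK/EPI-siNC cells, and 4 were not called (CDK4, CDK6, CDKN1A and RB1). Of all 16298 genes tested 38.1% were called, 19.4% higher and 18.7% lower, so 5 calls among 9 genes are not read as particular to the set. The largest difference was 1.29-fold among the called genes, and the median absolute log2 fold change of all genes was 0.12.

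CCND3 was at 40.8, 39.6 and 41 FPKM with control siRNA and at 53.5, 51 and 51.8 FPKM with BCRP siRNA, without overlap. Its log2 fold change was 0.36 (SE 0.03, adjusted p = 6.4e-05, limma with Benjamini-Hochberg adjustment), and 11.6% of tested genes had a larger absolute value. CCND1 was lower, at 75, 75.4 and 73.6 FPKM against 80.1, 80.5 and 78.3 FPKM. That difference was small but without overlap, a log2 fold change of -0.09 (SE 0.02, adjusted p = 0.0124, limma with Benjamini-Hochberg adjustment).

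CCND3 thus made up 41.1% ± 0.67 (SD, n = 3) of D-cyclin FPKM with BCRP siRNA and 33.7% ± 0.711 (SD, n = 3) with control siRNA. CCNE1 was at 10.5, 10.9 and 12 FPKM with BCRP siRNA and at 8.84, 8.81 and 9.05 FPKM with control siRNA. All BCRP siRNA libraries were higher, and the log2 fold change was 0.29 (SE 0.05, adjusted p = 0.00277, limma with Benjamini-Hochberg adjustment). The genes whose course was most like that of CCND3 over these 6 libraries were MRPS30 (root mean square difference 0.00958), ESRRA (0.0116) and MDH2 (0.0135).

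Neither kinase was called. CDK4 was at 25.2, 25.1 and 23.6 FPKM with BCRP siRNA and at 26.2, 24.5 and 24.3 FPKM with control siRNA, and the groups overlapped. The log2 difference was -0.02, with a 95% interval of -0.11 to 0.07. TSPAN31, which shares exonic bases with it, was lower, at 1.93 against 2.87 FPKM. CDK6 had 9 or 10 reads per library with BCRP siRNA and 7 to 12 with control siRNA, so no difference was detectable at this depth.

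CDKN1B was lower with BCRP siRNA, at 27.9, 26.9 and 26.9 FPKM against 31.3, 30.1 and 31.6 FPKM, without overlap. The log2 fold change was -0.18 (SE 0.03, adjusted p = 0.00216, limma with Benjamini-Hochberg adjustment). CDKN2A was also lower, at 31.9, 29.5 and 30.5 FPKM against 37.1, 36.3 and 33.9 FPKM, and its groups did not overlap either. Its log2 fold change was -0.22 (SE 0.04, adjusted p = 0.00588, limma with Benjamini-Hochberg adjustment). Around CDKN2A 4 of 6 tested neighbours within 1 Mb were lower and the others not called, CDKN2B among the lower at 0.902 of its control level. Around CDKN1B 8 of 14 were lower and the others not called. Around CCNE1 3 of 5 were higher and 1 lower, whereas around CCND3, which rose, 4 of 31 were higher and 8 lower, and around CCND1, which fell, 4 of 12 were higher and 1 lower. The counts were 9 higher and 7 lower of 33 around CDK4, 2 and 8 of 15 around CDK6, 2 and 7 of 18 around CDKN1A and 2 and 3 of 11 around RB1, and 1 of 6 was higher around CCND2. Of all these neighbours 49% were called, against 38.1% of all genes.

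CDKN1A was at 2, 2.51 and 1.59 FPKM with BCRP siRNA and at 1.45, 1.55 and 1.59 FPKM with control siRNA. BCRP siRNA replicate 3 lay at the top of the control libraries, and the other BCRP siRNA libraries above them. The log2 difference was 0.25, with a 95% interval of 0.001 to 0.501 and an adjusted p of 0.104 (limma with Benjamini-Hochberg adjustment). Without SK/EPI-siBCRP replicate 3 it was 0.36 with an adjusted p of 0.021, and with limma's voom on reads 0.40 with an adjusted p of 0.034, so its call depended on 1 library and on the model. Over all alternatives its adjusted p was 0.021 to 0.27 (limma with Benjamini-Hochberg adjustment). RB1 was at 4.08, 3.61 and 3.42 FPKM with BCRP siRNA and at 4.03, 4.05 and 3.7 FPKM with control siRNA, overlapping, with a log2 difference of -0.07 (95% interval -0.22 to 0.08).

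Set beside each other across the tables, untransfected SK/EPI and SK/EPI-siNC cells differed at several of these genes. The tables were normalized separately, and transfection and batch cannot be told apart here, so no test was made. Over 11967 genes of at least 1 FPKM in both, the median ratio of SK/EPI-siNC to SK/EPI was 1.02, with 0.643 and 1.72 at the 5th and 95th percentiles. CCND3 was above this range at 1.93 (3.11% of genes had a higher ratio), CDK4 was near its lower end at 0.653 and CCNE1 was at 0.721. CDKN2A was at 1.30, and CCND1, CDKN1A, CDKN1B and RB1 between 0.98 and 1.10.

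The other genes of the pathway were followed in 7 lists of 101 genes, of which 99 were tested in each comparison, and 6 of the lists are described here. In SK/EPI against SK-BR-3 cells 43 were higher and 40 lower, and after BCRP siRNA 30 were higher and 19 lower. These totals, and those of the lists in the closing section, cover all 7 lists, including the list not described. They are therefore not the balance of the 6 described lists. Against the backgrounds of 37.9% and 37.0%, and of 19.4% and 18.7%, the lists differed among themselves as follows, described by counts alone.

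Of 4 other CDK inhibitors, 2 were higher and 2 lower in SK/EPI cells, with a median log2 fold change of -0.28. CDKN2C (p18INK4c), another CDK4/6 inhibitor, fell from 26 ± 0.506 to 5.67 ± 0.378 FPKM (SD, n = 3), with a log2 fold change of -2.02, as CDKN2B rose by 2.04. CDKN2D (p19INK4d) fell as well, from 4.74 to 2.12 FPKM. The INK4 genes thus went in both directions in SK/EPI cells. After BCRP siRNA 3 of these 4 were lower and CDKN2D was not called, with CDKN2C at 2.17 against 3.74 FPKM and CDKN1C (p57), an inhibitor of CDK2 complexes, at 0.49 against 1.18 FPKM.

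Of the 10 other G1/S cyclins, CDKs and CDK-activating genes, 5 were higher and 4 lower in SK/EPI cells, with a median log2 fold change of 0.23. CDK7 and MNAT1, which belong to the kinase that activates CDKs, were 1.59-fold and 1.49-fold higher, while CDC25A, the phosphatase that frees CDK2 for entry into S phase, fell from 13.5 to 9.21 FPKM and CCNE2, the paralog of CCNE1, from 1.44 to 0.737 FPKM. After BCRP siRNA 2 of the 10 were higher and 8 not called. These were CDC25A, 1.26-fold higher, and CCNH, the cyclin of CDK7, 1.17-fold higher.

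In the RB family and E2F/DP list, 4 of 12 were higher and 5 lower in SK/EPI cells. TFDP1, the DP partner that most E2F proteins need to bind DNA, fell from 119 ± 3.12 to 34.2 ± 0.632 FPKM (SD, n = 3). Its relative TFDP2 rose from 2.64 to 6.18 FPKM. E2F5, a repressor E2F, rose from 0.381 to 2.31 FPKM and E2F7, another repressor, fell from 5.4 to 1.93 FPKM. After BCRP siRNA 7 of 12 were higher and 1 lower, with a median of 0.19. E2F1, an activator, was 1.44-fold higher, at 30 ± 1.52 against 20.9 ± 0.664 FPKM (SD, n = 3). E2F6 and E2F7 were 1.40-fold and 1.32-fold higher, and E2F3 was the lower one, at 7.56 against 9.64 FPKM.

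The 19 E2F target genes, which encode replication factors and enzymes of nucleotide synthesis, held 4 higher and 12 lower in SK/EPI cells, with a median log2 fold change of -0.39. RRM1, a subunit of ribonucleotide reductase, fell from 45.9 to 12.4 FPKM, CDC6, which loads the replicative helicase, from 82 to 26.6 FPKM, and the thymidine kinase gene TK1 from 333 to 127 FPKM. MCM2, part of that helicase, fell from 22.3 to 9.87 FPKM. After BCRP siRNA, 10 of the 19 were higher and 1 lower, with a median of 0.12. The rises were small, 1.28-fold for the checkpoint kinase CHEK1, 1.21-fold for CDC45, 1.20-fold for MCM7 and 1.17-fold for MCM3.

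Genes for turnover of G1 cyclins and inhibitors were 5 higher and 7 lower of 15 in SK/EPI cells. SKP2, the ubiquitin ligase subunit that marks p27 for degradation, rose from 14 to 24.7 FPKM, and CKS2 fell from 83.1 to 50.5 FPKM. USP28, a deubiquitinase, rose 2.99-fold. CUL4A, the scaffold of the ligase that removes p21 in S phase, fell from 41 to 17.2 FPKM. It lies on chromosome 13 from 113208193 to 113267108, close to TFDP1 (113584721 to 113641470), which fell as well, and far from RB1 on the same chromosome. After BCRP siRNA 1 was higher and 3 lower. DTL, the receptor of the CUL4 ligase, was 1.27-fold higher, while FBXW7, which marks cyclin E for degradation, was at 1.79 against 2.63 FPKM, SKP2 at 26.3 against 29.8 FPKM and CUL4B at 13 against 14.2 FPKM.

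Of 16 upstream transcription factors and INK4 repressors, 9 were higher and 6 lower in SK/EPI cells. MYC, which drives cyclin and CDK4 expression, rose from 57.1 ± 0.0744 to 168 ± 4.72 FPKM (SD, n = 3). ID1, known to restrain p16INK4a, fell from 141 ± 7.97 to 5.2 ± 0.0807 FPKM (SD, n = 3). KLF4, an activator of CDKN1A, fell from 13.3 to 1.64 FPKM. CEBPA, a factor that slows the cell cycle, rose from 0.408 to 6.33 FPKM and FOS, part of AP-1, from 0.64 to 5.54 FPKM. After BCRP siRNA 2 were higher and 5 lower. TBX3, a repressor of the CDKN2A locus, was 1.44-fold higher. It was also higher in SK/EPI than in SK-BR-3 cells, at 12.5 against 5.39 FPKM, although CDKN2A rose there. EZH2, listed as another INK4 repressor, was lower after BCRP siRNA, at 9.36 against 11.9 FPKM. In the same comparison FOXM1, which drives later cell cycle genes, was at 8.45 against 13 FPKM. FOXO1, an activator of CDKN1B, was at 0.938 against 1.36 FPKM. MYC was 1.06-fold higher.

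**Figure D5:**
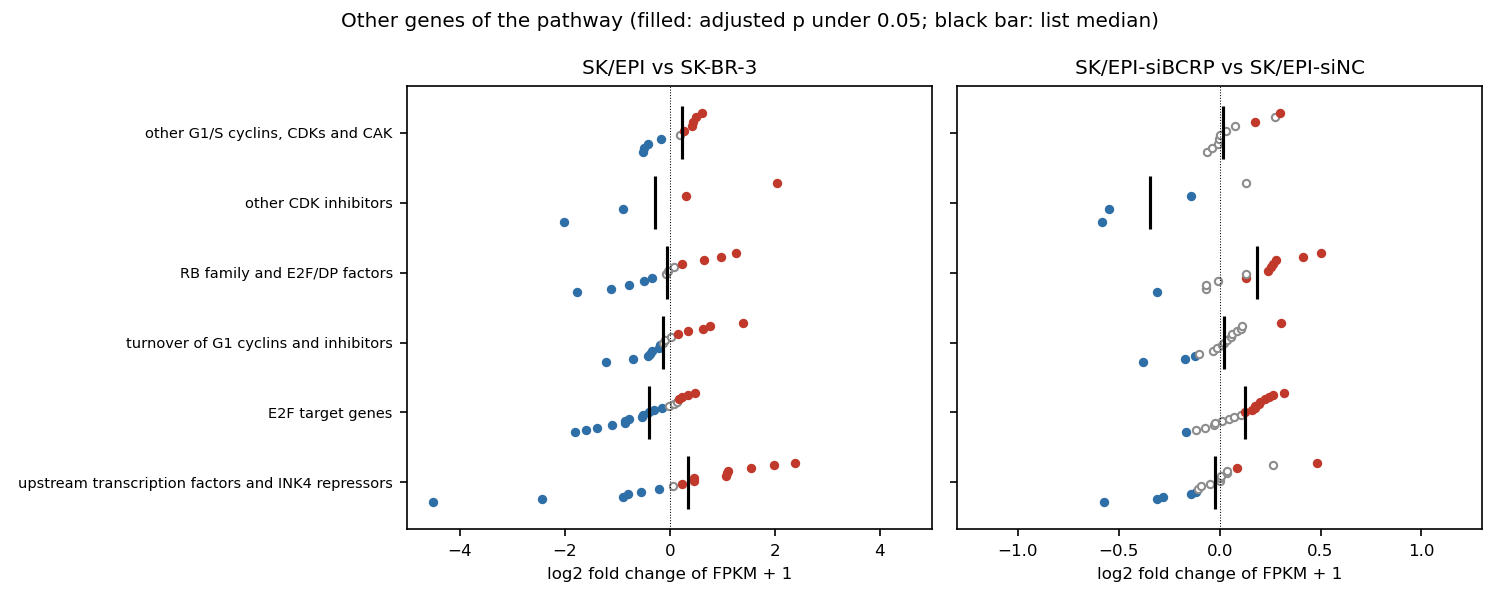
Log2 fold change of FPKM + 1 (horizontal axes, which differ in range) of the tested genes of 6 lists, with 1 point per gene, filled where the adjusted p in limma was under 0.05, and a black bar at the list median. In SK/EPI cells (left) the E2F target genes have a median of -0.39; after BCRP siRNA (right) the E2F target genes have a median of 0.12 and other CDK inhibitors -0.35.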

How the data were processed

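Total RNA of SK-BR-3, SK/EPI, SK/EPI-siNC and SK/EPI-siBCRP cells (3 libraries each) was poly-A selected and sequenced. The submitters' processing notes name HISAT2 2.0.5, featureCounts 1.5.0-p3, DESeq2 1.16.1 and hg38. The authors deposited 2 tables without a stated unit. The deposited values were read as FPKM, since multiplying a value by the gene's merged exonic length (GENCODE 29) gave a whole multiple of a library step (tolerance 0.01, 100.0% of values above 0), and reads were recovered from these steps. Whether counting used strand is not given in the sources used here. In each table, genes were fitted if 3 or more libraries had 10 reads or more (scaled to the median depth) and the total was 15 or more. This was done by group with limma 3.58.1 (lmFit, eBayes with trend) in R 4.3.3 on log2(FPKM + 1), with Benjamini-Hochberg adjustment over all tested genes and a threshold of 0.05. The steps were tested on simulated data. Replicates differed by more than counting noise (chi-square per degree of freedom 1.641 to 4.272), so none was counted as a repeat. Intervals of read ratios cover counting error only.

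The 10 genes and the gene lists were chosen with earlier results of these data known. Named beyond the 10 were ABCG2, MYC, markers, up to 4 genes per list and up to 2 neighbours per gene with the largest absolute log2 fold change among called genes whose groups do not overlap and with at least 1 FPKM in a group, and the 3 genes most similar to the gene that changed most. TSPAN31, CDKN2B-AS1, ABCB1, STEAP4 and CDK14 were chosen after their values were seen. Promoters and their starts are from RefSeq (GRCh38.p14), coordinates of genes from GENCODE 29. A gene named by this rule, and 1 of the 7 gene lists, are not reported here. The alternatives were a pseudocount of 0.1, other filters and scalings, a replicate block, voom with TMM on recovered reads, stricter thresholds, each library left out and a neighbour window of 0.5 Mb in place of 1 Mb.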

Additional observations from a re-analysis of the deposited data

How the results depend on the processing

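No call of the 9 genes reversed. A further minimum of 1 on the absolute log2 fold change left 1 gene of the set higher (CDKN2A) and 2 lower (CDK6 and CDKN1A) in SK/EPI cells, where 14.4% of all genes passed, and 0 higher and 0 lower after BCRP siRNA, where 0.411% passed; among the pathway lists it left 14 and 11, and 1 and 0. Otherwise CCND1 after BCRP siRNA missed an adjusted p under 0.01, and CDKN1A was called there with voom and without SK/EPI-siBCRP replicate 3. CDK6 could not be fitted where 10 reads were required in every library, which left 4 lower. With 1 library left out, the set kept 4 higher and 5 lower in SK/EPI cells and 2 to 3 higher and 3 lower after BCRP siRNA, and the lists had 41 to 44 higher and 38 to 40 lower, and 23 to 27 higher and 15 to 18 lower.

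With the replicate number as a block, 11656 and 5640 genes were called in place of 11854 and 6215, the set kept 4 higher and 5 lower, and 2 higher and 3 lower, and no call among its 9 genes changed. Same-numbered libraries did not deviate together (correlations -0.0403 to 0.0125). With deviations from means of 3 libraries, this cannot decide whether they shared a culture or a preparation. CDK6 in SK/EPI groups and CCND2 in all groups rest on too few reads to compare.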
